A study of Mus musculus with 21 samples.

Results

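The gene set described here holds 10 feedback inhibitors and targets of WNT signalling: Axin2, Sp5, Nkd1, Notum, Rnf43, Znrf3, Lgr5, Tcf7, Dkk1 and Ccnd1. They were taken by symbol from a table of 20900 genes measured in mouse embryonic stem cells treated with inhibitors of RNA polymerase I. Each symbol matched 1 row, and all 10 genes were among the 14666 tested. The set mixed both directions. Against untreated cells, Nkd1, Rnf43 and Lgr5 rose after 4 and 8 h of either inhibitor, though the rises of Rnf43 and Lgr5 at 8 h of CX-5461 were not called after quantile normalization. By contrast, Axin2, Notum and Ccnd1 fell at 4 h of either inhibitor. At 8 h Notum, Ccnd1 and Axin2 were lower with BMH-21 than with CX-5461. Sp5 changed direction with time, falling at 2 and 4 h and standing above the control at 8 h with both compounds. Tcf7 passed the threshold against the control at no time on the scale of the deposited values.

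WNT proteins are secreted lipid-modified ligands that bind Frizzled receptors together with LRP5 or LRP6. Receptor binding inactivates the complex of Axin, APC and GSK3 that marks beta-catenin for destruction, and the stabilised beta-catenin then joins TCF/LEF factors on DNA. Several of the genes activated this way encode inhibitors of the same pathway, so their mRNA is widely used as a readout of its activity. In mouse embryonic stem cells, WNT/beta-catenin signalling is known for supporting self-renewal, in part by relieving repression by Tcf7l1.

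The cells were E14, an embryonic stem cell line of the 129 strain, grown with serum and leukaemia inhibitory factor. BMH-21 and CX-5461 are small molecules that block transcription of ribosomal DNA by RNA polymerase I. The 7 groups, each of 3 replicates, were the untreated control (0 h) and cells kept for 2, 4 or 8 h in medium with 1 µM BMH-21 or 1 µM CX-5461. All groups shared the line and the culture medium, all 6 comparisons with the control used the same 3 control libraries, and the groups include no vehicle control matched in time, so an inhibitor and the time since the medium change cannot be told apart against 0 h. The labels do not say that replicates were separate cultures, so p-values measure the spread between these samples. Poly(A) RNA was sequenced to a depth of 46604397 to 62812641 reads counted in each library. Levels are the deposited log2 values, which are log2 RPM (reads per 1000000 of an effective library size), and 3 reads correspond to a level of -4.63 to -3.59. Changes are differences of group means on that scale with their standard error (SE). They were tested two-sided with limma over all 21 libraries, with Benjamini-Hochberg adjustment over the 14666 genes and a call at an adjusted p under 0.05. In such bulk samples, fewer cells of a type and less RNA per cell cannot be told apart.

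The effective sizes came from scaling factors of unstated origin, 0.832 to 1.375 times the reads. At 8 h these factors set the median change of all genes tested to -0.40 under BMH-21 and 0.11 with CX-5461, against -0.19 and -0.11 when each library was centred on its median. Changes below are on the deposited scale, and values from centring, median-ratio factors or quantile normalization are given where these turned or ended a call, and where they called a change that the text gives as not called. The cells carried embryonic stem cell markers throughout. The summed level of 8 such markers was 5387 to 6078 RPM in the controls, 2234 to 2512 at 8 h of BMH-21 and 4634 to 5014 at 8 h of CX-5461, with none at 0 reads. The summed level of 5 primitive streak markers was 6.55 to 8.52 RPM in the controls and 11.8 to 14.1 at 8 h of CX-5461, while that of 8 fibroblast markers was 33.9 to 38.2 in the controls, 46.4 to 56.6 at 4 h and 42.4 to 50.4 at 8 h of BMH-21, and 49.9 to 50.0 at 8 h of CX-5461. Of the fibroblast markers at 8 h of BMH-21, Col1a1 had a mean log2 level of 5.01 against 3.15 in the controls, Thy1 3.07 against 4.48 and Dcn -3.66 against -1.83. The part of these shifts in the results below was not tested.

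Per kilobase of merged exons, the control levels of the 10 genes spanned a wide range. Ccnd1 was highest at a log2 level per kilobase of 5.78, followed by Tcf7 at 5.17, Notum at 4.23, Axin2 at 2.41 and Znrf3 at 2.39. Sp5 stood at 0.029, Nkd1 at -0.59, Dkk1 at -0.87, Lgr5 at -2.44 and Rnf43 at -3.85. Rnf43 rested on only 17 to 25 reads per control library, Dkk1 on 53 to 68, Lgr5 on 83 to 92 and Sp5 on 96 to 104. Rnf43 lay below the filter (a log2 level above 0 in at least 3 libraries) in the controls and was tested only because treated libraries passed it.

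**Figure D1:**
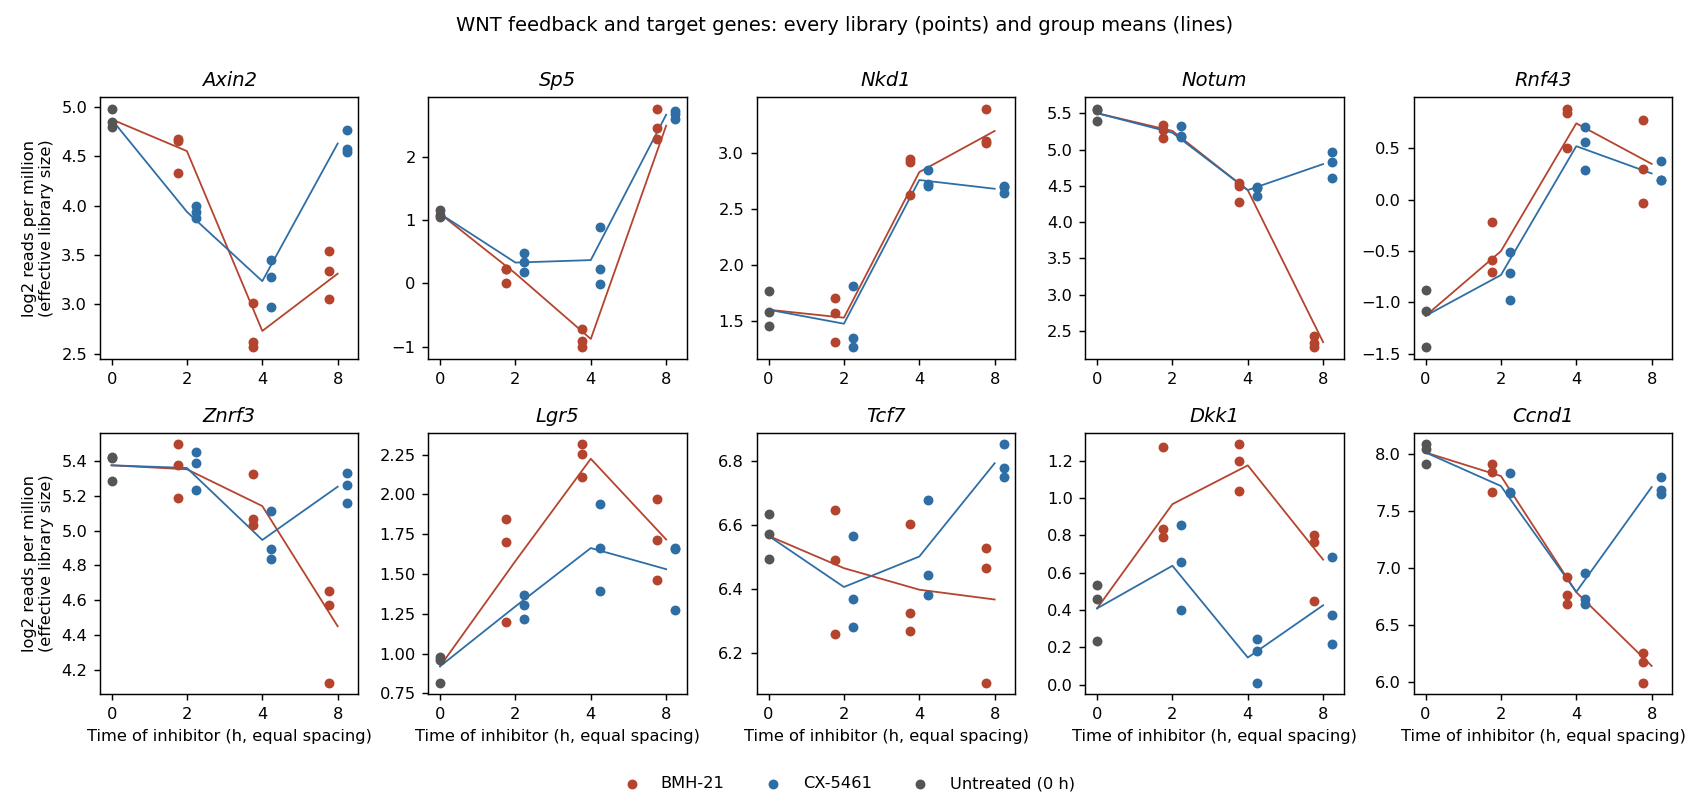
Log2 level (log2 RPM of the effective library size) of each of the 10 genes in every library by hours of treatment, with points for libraries and lines joining group means of 3. Notum and Ccnd1 part between the inhibitors at 8 h, where Notum stands at 2.28 to 2.43 under BMH-21 and 4.61 to 4.96 with CX-5461, whereas Sp5 dips at 4 h and stands above the controls at 8 h with both.

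Promoter sequences are shown for Axin2, the commonest mRNA readout of the pathway, for Sp5, the gene with the widest range here, and for Dkk1, the other gene with a match to the motif of the pathway's DNA-binding factors. TCF/LEF factors bind the motif CTTTGAA or CTTTGAT, which was searched on both strands in RefSeq promoter windows (GRCm38.p6, 250 bases before to 50 after a start). Windows were matched by symbol for 6 of the 10 genes, 8 windows in all. Capitals mark the motif, and the 3 sequences run 5′ to 3′ on the gene's strand. They are the 250 bases before the Axin2 start (chr11:108920099-108920348, forward strand), the 250 bases before the Sp5 start (chr2:70474673-70474922, forward strand) and 30 bases around the Dkk1 match (chr19:30549596-30549625, reverse strand).
Axin2: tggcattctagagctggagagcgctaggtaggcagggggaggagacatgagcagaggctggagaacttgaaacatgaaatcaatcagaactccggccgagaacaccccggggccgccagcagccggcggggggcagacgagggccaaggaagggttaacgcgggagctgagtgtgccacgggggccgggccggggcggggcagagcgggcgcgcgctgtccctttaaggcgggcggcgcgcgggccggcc
Sp5: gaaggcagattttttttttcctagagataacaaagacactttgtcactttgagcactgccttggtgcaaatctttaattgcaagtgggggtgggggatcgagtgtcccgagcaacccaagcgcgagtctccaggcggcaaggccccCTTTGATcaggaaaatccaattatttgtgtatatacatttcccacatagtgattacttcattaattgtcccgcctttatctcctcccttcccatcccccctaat
Dkk1: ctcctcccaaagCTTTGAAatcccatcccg

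The motif occurred in 2 of the 8 windows, as CTTTGAT 104 to 98 bases before the Sp5 start and as CTTTGAA 117 to 111 bases before the Dkk1 start. That Dkk1 start lies 169 bases inside the gene as GENCODE M21 draws it, so the match falls within the annotated gene. Of all 32851 promoter windows, 8.65% held the motif. The Axin2 window held none and was 70.0% G or C, above 90.4% of windows, while the Sp5 window was 45.0% G or C. The windows of Nkd1, Rnf43 and Tcf7 held no match either, which says only that these letters are not in those windows.

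Axin2 and Nkd1 encode intracellular inhibitors. Axin2 (chr11:108920349-108950783, forward strand, mm10) encodes a scaffold of the complex that degrades beta-catenin. Its log2 levels were 4.79, 4.98 and 4.85 in the controls, 3.01, 2.57 and 2.62 at 4 h of BMH-21 and 3.54, 3.05 and 3.34 at 8 h of BMH-21. With CX-5461 they were 4.00, 3.88 and 3.93 at 2 h, 2.98, 3.45 and 3.28 at 4 h and 4.77, 4.54 and 4.57 at 8 h. Every library at 4 h of either inhibitor lay below every control, and the levels at 8 h of CX-5461 had come back to just under the control range. Axin2 fell 4.41-fold at 4 h of BMH-21 (log2 change -2.14 ± 0.12, adjusted p = 5.7e-34) and was 2.95-fold lower at 8 h (-1.56 ± 0.12, adjusted p = 1.5e-23). With CX-5461 it fell 1.91-fold at 2 h (-0.94 ± 0.12, adjusted p = 1.9e-10) and 3.11-fold at 4 h (-1.64 ± 0.12, adjusted p = 1.4e-24). At 8 h of CX-5461 the change was -0.24 ± 0.12, adjusted p = 0.087, not past the threshold on the deposited scale, and -0.46 to -0.36 under the other scalings, where it was called. The change at 2 h of BMH-21, from the control levels to 4.33, 4.65 and 4.67, was small (-0.32 ± 0.12, adjusted p = 0.049). That call was lost without replicate 1 at 2 h of BMH-21 and without replicate 1, 2 or 3 of the control, with changes of -0.36 to -0.21.

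Nkd1 (chr8:88521354-88594884, forward strand), whose product binds Dishevelled and dampens the pathway, moved the other way. Control libraries had log2 levels of 1.77, 1.45 and 1.58, and at 2 h both inhibitors overlapped them, with 1.31, 1.71 and 1.57 under BMH-21 and 1.81, 1.27 and 1.35 for CX-5461. At 4 h the levels were 2.92, 2.62 and 2.95 under BMH-21 and 2.71, 2.85 and 2.72 with CX-5461, and at 8 h 3.10, 3.09 and 3.39 and 2.71, 2.69 and 2.64. All 12 libraries at 4 and 8 h lay above every control. The rise was 2.34-fold at 4 h (1.23 ± 0.14, adjusted p = 1.3e-13) and 3.02-fold at 8 h of BMH-21 (1.60 ± 0.14, adjusted p = 5.6e-20). With CX-5461 it was 2.23-fold (1.16 ± 0.14, adjusted p = 2.2e-12) and 2.11-fold (1.08 ± 0.14, adjusted p = 5e-11). Thus the 2 intracellular inhibitors, both called at 4 h with each compound, moved in opposite directions there.

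Notum and Dkk1 encode secreted inhibitors. Notum (chr11:120653788-120661175, reverse strand) encodes a carboxylesterase that removes the lipid from WNT proteins. Its log2 levels were 5.56, 5.55 and 5.40 in the controls and 5.16, 5.27 and 5.33 at 2 h, 4.54, 4.28 and 4.50 at 4 h and 2.43, 2.33 and 2.28 at 8 h of BMH-21. With CX-5461 they were 5.33, 5.19 and 5.18 at 2 h, 4.36, 4.47 and 4.49 at 4 h and 4.96, 4.61 and 4.83 at 8 h. Levels under BMH-21 were thus lower at each later time, while those at 8 h of CX-5461 lay above those at 4 h. At 4 h Notum fell 2.09-fold with BMH-21 (-1.06 ± 0.11, adjusted p = 1.5e-15) and 2.08-fold with CX-5461 (-1.06 ± 0.11, adjusted p = 2.1e-15). At 8 h the fall was 8.91-fold with BMH-21 (-3.16 ± 0.11, adjusted p = 2.3e-54) and 1.63-fold with CX-5461 (-0.70 ± 0.11, adjusted p = 3.4e-08). In RPM, the mean level was 45.4 ± 2.78 (SD, n = 3) in the controls, 5.09 ± 0.266 at 8 h of BMH-21 and 28.0 ± 3.36 at 8 h of CX-5461. Neither change at 2 h passed the threshold (-0.24 ± 0.11, adjusted p = 0.12 under BMH-21 and -0.27 ± 0.11, adjusted p = 0.058 for CX-5461). The latter was called without replicate 1 at 2 h of CX-5461 or replicate 3 of the control, at -0.32 in both fits.

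Dkk1 (chr19:30545863-30549665, reverse strand) encodes a secreted antagonist that binds LRP6. Its control levels were 0.46, 0.23 and 0.53. With BMH-21 they were 0.84, 1.27 and 0.79 at 2 h, 1.29, 1.20 and 1.04 at 4 h and 0.80, 0.76 and 0.45 at 8 h, so that all libraries at 2 and 4 h lay above the controls and those at 8 h overlapped them. With CX-5461 the values were 0.40, 0.66 and 0.86 at 2 h, 0.012, 0.24 and 0.18 at 4 h and 0.22, 0.38 and 0.68 at 8 h, and no change from the control was called on the deposited scale. The rises with BMH-21 were 1.47-fold at 2 h (0.56 ± 0.20, adjusted p = 0.035) and 1.70-fold at 4 h (0.77 ± 0.20, adjusted p = 0.00045). The 2 h call was lost without replicate 2 at 2 h of BMH-21 or replicates 1 or 2 of the control (0.41 to 0.58). With CX-5461 the changes were 0.23 ± 0.20 at 2 h, -0.26 ± 0.20 at 4 h and 0.017 ± 0.20 at 8 h, none called. After quantile normalization the changes at 4 and 8 h of CX-5461 were called, at -0.52 (adjusted p = 0.016) and -0.68 (adjusted p = 0.0028). The change at 8 h of BMH-21 was 0.26 ± 0.20, adjusted p = 0.22. It was called after centring (0.47) and with median-ratio factors (0.62) and came to -0.10 after quantile normalization.

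Rnf43 and Znrf3 encode related transmembrane ubiquitin ligases that remove Frizzled from the cell surface, and Lgr5 encodes a receptor for R-spondins, which block those ligases. Rnf43 (chr11:87662722-87735539, forward strand) had log2 levels of -0.88, -1.08 and -1.44 in the controls, 0.88, 0.84 and 0.50 at 4 h and -0.036, 0.30 and 0.78 at 8 h of BMH-21, and 0.29, 0.71 and 0.56 at 4 h and 0.19, 0.38 and 0.19 at 8 h of CX-5461. All treated libraries at 4 and 8 h stood above the controls, at read counts of 78 to 102 at 4 h of BMH-21 against 17 to 25 in the controls. Rnf43 rose 3.67-fold at 4 h of BMH-21 (1.87 ± 0.25, adjusted p = 2.9e-11) and 3.14-fold at 4 h of CX-5461 (1.65 ± 0.25, adjusted p = 3e-09). At 8 h the changes were 1.48 ± 0.25, adjusted p = 3.9e-08 and 1.39 ± 0.25, adjusted p = 6.2e-07. The last was not called after quantile normalization (0.28, adjusted p = 0.21). At 2 h the levels were -0.59, -0.22 and -0.70 under BMH-21 and -0.51, -0.98 and -0.71 with CX-5461, giving changes of 0.63 ± 0.25 and 0.40 ± 0.25 that were not called. Both were called after centring (0.71 and 0.54) and with median-ratio factors (0.71 and 0.58). Without replicate 1 of the control, the BMH-21 change was called at 0.76. Znrf3 (chr11:5276324-5444847, reverse strand) did not follow Rnf43. Its levels were 5.42, 5.42 and 5.28 in the controls, 5.32, 5.07 and 5.03 at 4 h and 4.65, 4.13 and 4.57 at 8 h of BMH-21, and 4.83, 5.11 and 4.89 at 4 h and 5.33, 5.16 and 5.26 at 8 h of CX-5461. The libraries at 8 h of BMH-21 were the lowest of all, and those at 8 h of CX-5461 overlapped the controls. Znrf3 fell 1.89-fold at 8 h of BMH-21 (-0.92 ± 0.11, adjusted p = 1.6e-12) and 1.34-fold at 4 h of CX-5461 (-0.43 ± 0.11, adjusted p = 0.00059). At 8 h of CX-5461 the change was -0.12 ± 0.11, adjusted p = 0.39, and -0.34 to -0.24, called, under the other scalings. The change at 4 h of BMH-21 was -0.23 ± 0.11, adjusted p = 0.063. It was called without replicate 1 at 4 h of BMH-21 or replicate 3 of the control, at -0.32 to -0.28. At 2 h, Znrf3 had levels of 5.19, 5.49 and 5.37 under BMH-21 and 5.45, 5.39 and 5.23 with CX-5461, overlapping the control range. The CX-5461 change there, -0.015, was called with median-ratio factors (0.17).

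Lgr5 (chr10:115450311-115587780, reverse strand) had log2 levels of 0.98, 0.96 and 0.82 in the controls. With BMH-21 they were 1.20, 1.85 and 1.70 at 2 h, 2.31, 2.11 and 2.25 at 4 h and 1.71, 1.47 and 1.97 at 8 h. With CX-5461 they were 1.37, 1.31 and 1.22 at 2 h, 1.66, 1.94 and 1.39 at 4 h and 1.66, 1.27 and 1.66 at 8 h. All 18 treated libraries lay above the 3 controls. Lgr5 rose 1.58-fold at 2 h of BMH-21 (0.66 ± 0.16, adjusted p = 0.0012), 2.47-fold at 4 h (1.30 ± 0.16, adjusted p = 6.6e-12) and 1.74-fold at 8 h (0.80 ± 0.16, adjusted p = 6.6e-06). With CX-5461 it rose 1.67-fold at 4 h (0.74 ± 0.16, adjusted p = 3.9e-05) and 1.53-fold at 8 h (0.61 ± 0.16, adjusted p = 0.001), while the 2 h change was 0.38 ± 0.16, adjusted p = 0.072, and 0.42 to 0.56, called, under the other 3 scalings. The rise at 8 h of CX-5461 held under centring (0.40, adjusted p = 0.007) and median-ratio factors (0.50, adjusted p = 0.0012) but came to -0.016 after quantile normalization.

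Sp5 and Tcf7 encode nuclear factors. Sp5 (chr2:70474923-70477729, forward strand) is a transcription factor of the Sp family and a direct target of beta-catenin. Its log2 levels were 1.16, 1.09 and 1.06 in the controls. With BMH-21 they were 0.23, 0.0072 and 0.23 at 2 h, -0.72, -0.91 and -1.01 at 4 h and 2.75, 2.27 and 2.45 at 8 h. With CX-5461 they were 0.47, 0.17 and 0.34 at 2 h, -0.0097, 0.88 and 0.23 at 4 h and 2.67, 2.60 and 2.72 at 8 h. Every library at 2 and 4 h was below every control, and every library at 8 h was above, with both compounds. Sp5 fell 1.92-fold at 2 h (-0.94 ± 0.19, adjusted p = 4e-05) and 3.94-fold at 4 h of BMH-21 (-1.98 ± 0.19, adjusted p = 1.1e-17), and rose 2.62-fold over the control at 8 h (1.39 ± 0.19, adjusted p = 6.9e-11). With CX-5461 it was 1.71-fold lower at 2 h (-0.77 ± 0.19, adjusted p = 0.00093) and 1.66-fold lower at 4 h (-0.73 ± 0.19, adjusted p = 0.0004). At 8 h of CX-5461 it was 2.96-fold higher (1.56 ± 0.19, adjusted p = 2.1e-12). In reads, Sp5 went from 96 to 104 per control library to 27 to 30 at 4 h and 342 to 417 at 8 h of BMH-21. Tcf7 (chr11:52252371-52283014, reverse strand), which encodes TCF1, was the steadiest gene of the set. Its levels were 6.63, 6.57 and 6.49 in the controls, and its group means spanned 0.43 on the log2 scale, the narrowest range of the 10. The libraries at 2 and 4 h of both inhibitors lay between 6.26 and 6.68, across the control range. At 4 h of CX-5461 the change was -0.065 ± 0.11, adjusted p = 0.61, and was called as higher with median-ratio factors (0.19, adjusted p = 0.002) and after quantile normalization (0.26, adjusted p = 5.5e-05). At 8 h they were 6.47, 6.11 and 6.53 under BMH-21 and 6.85, 6.75 and 6.78 with CX-5461. The changes there were -0.20 ± 0.11, adjusted p = 0.089 with BMH-21, 95% interval -0.42 to 0.020, and 0.23 ± 0.11, adjusted p = 0.079 with CX-5461, 95% interval 0.0078 to 0.45 without adjustment. The other scalings gave 0.013 to 0.27 under BMH-21 and 0.012 to 0.26 with CX-5461, called as higher with median-ratio factors and quantile normalization and not after centring. Without replicate 3 at 8 h of BMH-21 the former was called at -0.28, as was the change at 4 h of BMH-21 without its replicate 1 at -0.27.

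Ccnd1 (chr7:144929931-144939925, reverse strand) encodes cyclin D1, which partners CDK4 and CDK6 in the G1 phase. Its log2 levels were 8.08, 8.05 and 7.91 in the controls. With BMH-21 they were 7.67, 7.91 and 7.85 at 2 h, 6.92, 6.76 and 6.68 at 4 h and 6.26, 6.00 and 6.17 at 8 h. With CX-5461 they were 7.84, 7.66 and 7.66 at 2 h, 6.69, 6.95 and 6.73 at 4 h and 7.80, 7.65 and 7.69 at 8 h. The libraries of both inhibitors overlapped at 4 h and stood apart at 8 h. Ccnd1 fell 2.34-fold at 4 h of BMH-21 (-1.23 ± 0.11, adjusted p = 1.2e-20) and 2.33-fold at 4 h of CX-5461 (-1.22 ± 0.11, adjusted p = 1.9e-20). At 8 h it was 3.66-fold lower with BMH-21 (-1.87 ± 0.11, adjusted p = 7.3e-35) and 1.23-fold lower with CX-5461 (-0.30 ± 0.11, adjusted p = 0.011). At 2 h the changes were -0.21 ± 0.11, adjusted p = 0.17 under BMH-21 and -0.29 ± 0.11, adjusted p = 0.027 with CX-5461. The BMH-21 change was called under the other 3 scalings (-0.14 to -0.12). The call at 2 h of CX-5461 was lost without replicates 2 or 3 of that group or replicates 1 or 2 of the control (-0.28 to -0.26). The call at 8 h was lost without replicate 2 of CX-5461 or replicate 1 of the control, at -0.27 in both fits.

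Counted together, the share of the 10 genes that was called at 4 and 8 h, 6 to 8 of 10, was near that of all genes. At 2 h of BMH-21, 2 were higher and 2 lower, where 19.7% of all genes tested were called, 8.48% higher and 11.2% lower. At 4 h of BMH-21 the set had 4 higher and 4 lower, against 67.0% of all genes, 22.1% higher and 44.9% lower. With BMH-21 at 8 h it again had 4 and 4, against 81.5%, with 24.5% higher and 56.9% lower. CX-5461 gave 0 higher and 3 lower at 2 h, against 27.9%, with 7.45% higher and 20.5% lower. It gave 3 and 5 at 4 h, against 70.9%, with 19.8% and 51.2%, and 4 and 2 at 8 h, against 49.4%, with 35.1% and 14.3%. Their median change was 0.031 at 8 h of BMH-21 against -0.40 over all genes, and 0.12 at 8 h of CX-5461 against 0.11. Without Rnf43, which passed the filter only through treated libraries, 3 were higher and 4 lower at 4 h and again at 8 h of BMH-21. With CX-5461 the counts without it were 2 and 5 at 4 h, and 3 and 2 at 8 h.

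**Figure D2:**
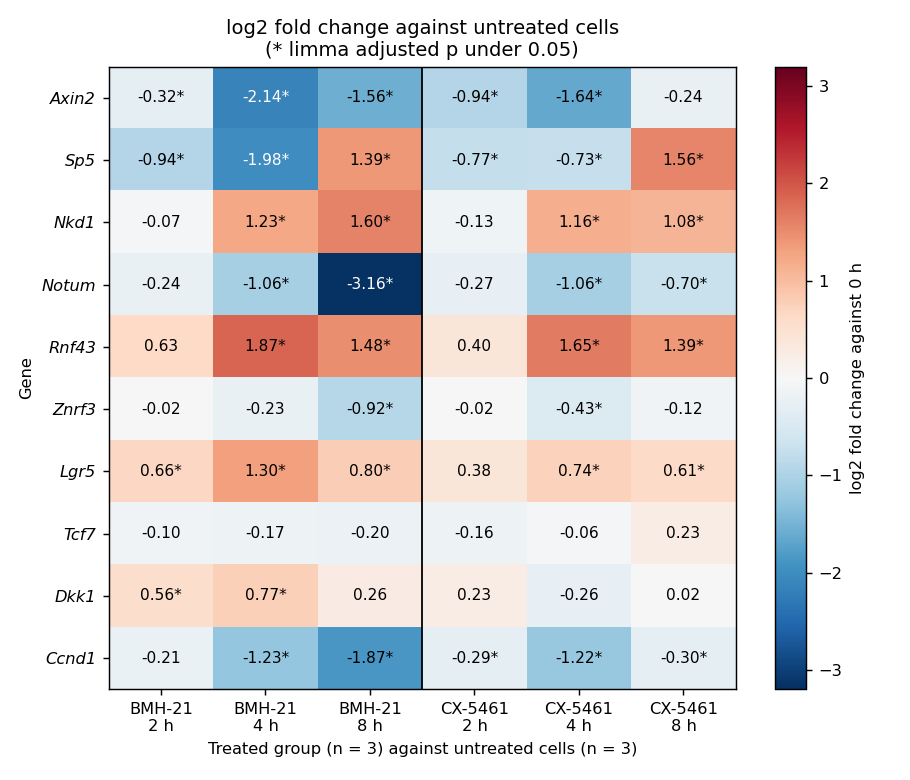
Log2 change from the 0 h control of each gene (rows) in each treated group (columns), coloured from lower to higher, with an asterisk for an adjusted p under 0.05 by limma. Notum at 8 h of BMH-21 is the strongest fall (-3.16), the Sp5 row switches sign between 4 and 8 h, and the Tcf7 row holds no asterisk.

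The later part of the time course, from 4 to 8 h, separated the compounds at several genes. With BMH-21, Sp5 rose 10.3-fold from 4 to 8 h (3.37 ± 0.19, adjusted p = 5.1e-33), and Axin2 and Nkd1 rose by 0.58 and 0.37 (log2), while Notum fell 4.27-fold (-2.09 ± 0.11, adjusted p = 5.1e-35). Znrf3, Ccnd1, Lgr5 and Dkk1 fell by 0.69, 0.65, 0.51 and 0.50. That made 3 higher and 5 lower, where 56.4% of all genes were called, 18.6% higher and 37.8% lower. The Nkd1 call was lost without replicate 2 at 4 h or replicate 3 at 8 h of BMH-21 (0.26 to 0.27), the Lgr5 call without replicate 2 at 8 h (-0.38), and the Dkk1 call without replicates 1 or 2 at 4 h or replicate 3 at 8 h (-0.49 to -0.39). The Dkk1 change was also not called with median-ratio factors (-0.33). Tcf7, at -0.031 on the deposited scale, was called as higher with median-ratio factors (0.14) and after quantile normalization (0.19), and Rnf43, at -0.39, as lower after quantile normalization (-0.56). With CX-5461, 6 of the 10 were higher at 8 h than at 4 h and 0 lower, where 63.7% of all genes were called, 58.8% higher and 4.85% lower. Sp5 rose 4.91-fold (2.30 ± 0.19, adjusted p = 1.6e-20), Axin2 2.62-fold (1.39 ± 0.12, adjusted p = 5.6e-19) and Ccnd1 1.89-fold (0.92 ± 0.11, adjusted p = 3.7e-13). These 3 rises were called under all 4 scalings. Those of Notum (0.36), Znrf3 (0.31) and Tcf7 (0.29) were not called on the other 3, with changes of -0.015 to -0.0070, -0.069 to -0.047 and -0.082 to -0.0030. Centring, median-ratio factors and quantile normalization each gave 3 higher and 3 lower. The lower ones were Nkd1 (-0.51 to -0.44), Rnf43 (-0.78 to -0.63) and Lgr5 (-0.58 to -0.50), with -0.078, -0.27 and -0.13 on the deposited scale. Of all genes, 8477, 8395 and 8350 were called under these scalings in turn, against 9338 as deposited. Their median change was -0.036, -0.030 and -0.0062, against 0.34 as deposited. The deposited shares of all genes therefore do not apply to these counts. On the deposited scale, the Notum call was also lost without replicate 1 at 8 h of CX-5461 (0.28). Without replicates 1 or 3 at 4 h or replicate 1 at 8 h of CX-5461, the calls of Znrf3 (0.25 to 0.28) and Tcf7 (0.23 to 0.26) were lost too.

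The difference between these time courses was itself tested, as the change from 4 to 8 h with BMH-21 minus that with CX-5461. It passed the threshold for 7 of the 10 genes, 2 higher and 5 lower, against 69.4% of all genes, 7.98% higher and 61.4% lower. It was -2.45 ± 0.16, adjusted p = 1.2e-27 for Notum, -1.57 ± 0.15, adjusted p = 7.4e-17 for Ccnd1, -0.99 ± 0.16, adjusted p = 8.7e-08 for Znrf3 and -0.81 ± 0.17, adjusted p = 2.4e-05 for Axin2, all in the direction of lower mRNA with BMH-21. Under the other 3 scalings these 4 stayed called, at -2.22 to -1.91, -1.13 to -1.03, -0.56 to -0.45 and -0.45 to -0.27, the last with an adjusted p of 0.0498 with median-ratio factors. Sp5 had a difference of 1.07 ± 0.27, adjusted p = 0.00029, from lower levels at 4 h of BMH-21. For Nkd1 the difference was 0.45 ± 0.20, adjusted p = 0.041, and for Dkk1 -0.78 ± 0.28, adjusted p = 0.011. That of Nkd1 was 0.88 to 0.98 and called under the other 3 scalings, but on the deposited scale it was not called without replicate 2 at 4 h or replicate 3 at 8 h of BMH-21, replicates 2 or 3 at 4 h of CX-5461, or any 1 replicate at 8 h of CX-5461 (0.34 to 0.46). That of Dkk1 was -0.49 to -0.24 and not called under the other scalings. For Lgr5 the difference was -0.37 ± 0.23 and for Tcf7 -0.32 ± 0.16, neither called. The other scalings gave -0.043 to 0.17 for Lgr5 and 0.11 to 0.22 for Tcf7, the latter called as higher with median-ratio factors and after quantile normalization. Single fits called Lgr5 without replicate 2 at 4 h of CX-5461 (-0.51), and Tcf7 without replicate 3 at 4 h or replicates 1 or 3 at 8 h of BMH-21 or replicate 2 at 4 h of CX-5461 (-0.41 to -0.37).

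**Figure D3:**
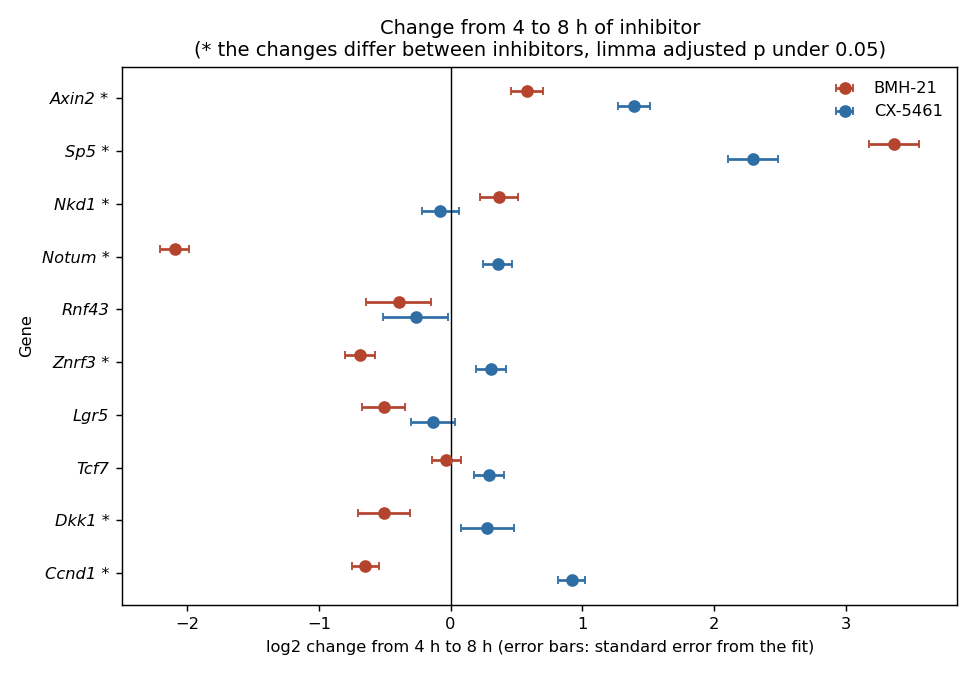
Log2 change from 4 to 8 h of each gene under BMH-21 and with CX-5461, with bars for the SE, and an asterisk where the difference between the inhibitors had an adjusted p under 0.05. Notum moves by -2.09 under BMH-21 and 0.36 with CX-5461, Ccnd1 by -0.65 and 0.92, and Sp5 is positive with both at 3.37 and 2.30.

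Compared directly at the same dose and time, 1 of the 10 genes was called between the inhibitors at 2 h. It was Axin2, higher with BMH-21 by 0.61 ± 0.12, adjusted p = 0.00021, where 3.99% of all genes were called, 2.47% higher and 1.52% lower. At 4 h, Dkk1 was 2.04-fold higher (1.03 ± 0.20, adjusted p = 3.7e-05) and Lgr5 1.48-fold higher with BMH-21 (0.56 ± 0.16, adjusted p = 0.0087). Sp5 was 2.37-fold lower (-1.25 ± 0.19, adjusted p = 1.2e-07) and Axin2 1.42-fold lower (-0.50 ± 0.12, adjusted p = 0.0011). These 4 genes stood against 17.8% of all genes called, 9.35% higher and 8.49% lower, and the Lgr5 call was lost without replicate 3 at 4 h of CX-5461 (0.43). Notum and Ccnd1 were not called at 4 h, with differences of -0.0015 (95% interval -0.22 to 0.22) and -0.0028 (-0.21 to 0.21). Quantile normalization called 3 genes more, Ccnd1 (-0.11), Tcf7 (-0.18) and Znrf3 (0.17). Of these, Tcf7 was also called with median-ratio factors (-0.17) and Znrf3 after centring (0.19). At 8 h, 1 gene was higher and 5 lower with BMH-21, against 79.2% of all genes, 12.0% higher and 67.2% lower. Notum was 5.48-fold lower (-2.45 ± 0.11, adjusted p = 7.6e-42), Ccnd1 2.97-fold lower (-1.57 ± 0.11, adjusted p = 1.4e-27) and Axin2 2.49-fold lower (-1.32 ± 0.12, adjusted p = 2.9e-18). Znrf3 was 1.74-fold lower (-0.80 ± 0.11, adjusted p = 6.2e-10), and Nkd1 was the gene that was higher (0.52 ± 0.14, adjusted p = 0.00064). The lower Tcf7 (-0.43 ± 0.11, adjusted p = 0.00032) rested on the deposited factors, being 0.00093 to 0.046 under the other scalings. Sp5 did not pass the threshold at 8 h, with a difference of -0.17 and a 95% interval of -0.55 to 0.20. The other scalings gave Sp5 differences of 0.20 to 0.30, none called.

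The 8 h results split differently under other scalings. On the deposited scale, 15.1% of all genes called between BMH-21 and CX-5461 at 8 h were higher with BMH-21, against 43.4% after centring, 49.0% with median-ratio factors and 42.6% after quantile normalization. The 10 genes went from 1 higher and 5 lower to 4 and 4 under each of those. The 3 that joined Nkd1 as higher with BMH-21 were Lgr5 (0.54 to 0.66 against 0.19 as deposited), Dkk1 (0.58 to 0.72 against 0.24) and Rnf43 (0.45 to 0.57 against 0.093). There Nkd1 (0.94 to 0.99) differed in size more than Axin2 (-0.96 to -0.84). Against the control, 30.1% of all genes called at 8 h of BMH-21 were higher on the deposited scale and 39.4% to 47.8% on the others. At 8 h of CX-5461 the shares were 71.1% and 39.6% to 50.0%, and the genes of the set went from 4 higher and 2 lower to 4 and 4, 5 and 4, and 3 and 5 under centring, median-ratio factors and quantile normalization. At 8 h of BMH-21, the falls of Notum, Ccnd1, Axin2 and Znrf3 and the rises of Nkd1, Sp5, Rnf43 and Lgr5 kept their direction under all 4 scalings. The Notum change was -3.08 to -2.80 and the Ccnd1 change -1.66 to -1.39 on the other 3.

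**Figure D4:**
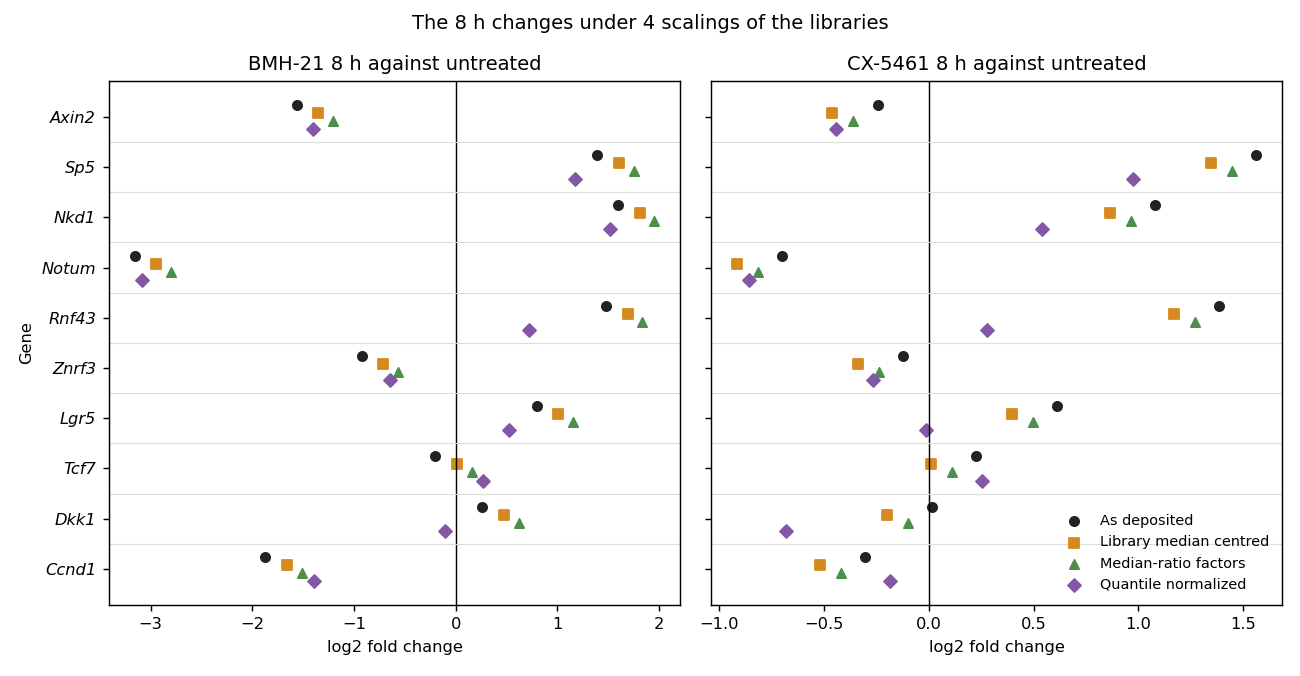
Log2 change from control of each gene at 8 h of BMH-21 and of CX-5461 under the deposited scaling, median centring, median-ratio factors and quantile normalization. Centring shifts every gene of a panel by the same amount and quantile normalization does not, Notum with BMH-21 stays far below 0 in all 4, and Lgr5 with CX-5461 reaches -0.016 after quantile normalization.

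Ordered by group mean, neighbouring groups often overlapped. Of the 6 neighbouring pairs, 2 overlapped for Notum, 3 each for Axin2, Sp5 and Nkd1, 4 each for Lgr5 and Ccnd1, 5 each for Rnf43, Znrf3 and Tcf7 and all 6 for Dkk1. Axin2 was highest in the controls (4.87 ± 0.093, SD, n = 3) and lowest at 4 h of BMH-21 (2.73 ± 0.24). The control stood apart from 8 h of CX-5461 (4.63 ± 0.12), which overlapped 2 h of BMH-21 (4.55 ± 0.19), then 2 h of CX-5461 (3.94 ± 0.059) stood apart, and the 3 lowest groups overlapped as neighbours. Sp5 had the widest range of group means, 3.54, from -0.88 ± 0.15 at 4 h of BMH-21 to 2.66 ± 0.059 at 8 h of CX-5461. Across the 7 group means, which share the same control and scaling, the profile of Notum was closest within the set to that of Znrf3 (Pearson r = 0.979). Ccnd1 had r = 0.926 with Znrf3 and 0.910 with Notum, and Nkd1 had 0.904 with Rnf43. Many genes outside the set were closer. By likeness to Notum, Znrf3 ranked 520 of 13683 genes. By likeness to Ccnd1, Znrf3 ranked 2620 and Notum 3152, and by likeness to Rnf43, Nkd1 ranked 700 of 13684. Among 13683 genes with a mean level of at least 0, the 3 most like Axin2 were Hs6st1 (r = 0.994), E530001F21Rik (0.992) and 4930548H24Rik (0.991).

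Of 107 other genes of the pathway, grouped by role, 89 were tested. Of 19 WNT genes, 6 were above the filter in all controls (Wnt3, Wnt4, Wnt5a, Wnt6, Wnt7b and Wnt9a). All 6 rose at 8 h of BMH-21 and of CX-5461 on the deposited scale, where 24.5% and 35.1% of all genes were higher. Wnt9a went from a log2 level of 0.24 ± 0.21 (SD, n = 3) to 5.60 ± 0.18 at 4 h of BMH-21, 5.08 ± 0.057 at 4 h of CX-5461 and 3.38 ± 0.17 at 8 h of CX-5461. Its change at 4 h of BMH-21 was 5.36 ± 0.12, adjusted p = 1.6e-74. The other 8 tested ligands were not above the filter in every control library, among them Wnt5b at -0.21 to 0.18 in the controls, which moved by -1.32 ± 0.28 at 4 h of BMH-21 and was the largest fall of the list. Porcn, whose product adds the WNT lipid, fell by 2.10 ± 0.11 at 8 h of BMH-21, and Wls, which carries WNT proteins to the surface, rose by 1.05 ± 0.17.

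Most receptors fell at 4 h. Of the 15 Frizzled, LRP, Ryk and Ror genes, 2 were higher and 11 lower at 4 h of each inhibitor and again at 8 h of BMH-21. Over all genes the shares were 22.1% higher and 44.9% lower at 4 h of BMH-21, 19.8% and 51.2% at 4 h of CX-5461 and 24.5% and 56.9% at 8 h of BMH-21. In the last of these, the receptors' median change was -1.17 against -0.40 over all genes. The other scalings gave 2 to 4 higher and 10 to 12 lower in these 3 comparisons. At 8 h of CX-5461, 4 were higher and 2 lower on the deposited scale, against 35.1% and 14.3% of all genes. The counts were 2 and 7 after centring and 3 and 10 after quantile normalization. There the median change of all genes was -0.11 and -0.078, against 0.11 as deposited. The shares of all genes in this paragraph are those of the deposited scale. Ror1 fell by 2.83 ± 0.28 at 8 h of BMH-21, while Fzd1, not above the filter in every control, rose by 2.11 ± 0.19. Lgr4, the paralog of Lgr5, fell by 1.24 ± 0.11 there, opposite in direction to Lgr5, and Rspo4, also below the filter in the controls, rose by 2.44 ± 0.28. Among 8 tested secreted or surface inhibitors, 4 were higher and 4 lower at 8 h of BMH-21, against 24.5% and 56.9% of all genes, with Kremen1 up by 1.33 ± 0.11 and Sfrp4 down by 2.06 ± 0.15.

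Of 18 genes for the cytoplasmic steps, 2 were higher and 12 lower at 8 h of BMH-21, against 24.5% and 56.9% of all genes, with a median change of -0.38 against -0.40. The counts were 7 and 6 with median-ratio factors and 8 and 6 after quantile normalization. Under these 2 scalings the median change of all genes was -0.038 and -0.17, so the deposited shares do not apply to them. With CX-5461 at 8 h, 5 were higher and 0 lower, against 35.1% and 14.3% of all genes, but 3 and 8 after centring. Centring also moved the median change of all genes there from 0.11 to -0.11. Ctnnb1, which encodes beta-catenin, changed by -0.44 ± 0.10 at 8 h of BMH-21 and by 0.27 after quantile normalization. Axin1, the constitutive paralog of Axin2, changed by -0.68 ± 0.11 (-0.47 to -0.25 under the other scalings). Nkd2, the paralog of Nkd1, fell by 0.83 ± 0.15, while Nkd1 rose. The largest rise of this list was that of Apc2, by 1.39 ± 0.16 at 8 h of CX-5461. Of 12 nuclear genes, 2 were higher and 8 lower at 8 h of BMH-21, against 24.5% and 56.9% of all genes, and 4 and 4 at 8 h of CX-5461, against 35.1% and 14.3%. Pygo1 was not above the filter in every control, and without it the counts were 2 and 8, and 3 and 4. Lef1, which encodes a TCF/LEF factor like Tcf7, went from a level of 4.29 ± 0.042 (SD, n = 3) to 2.29 ± 0.084 at 4 h of BMH-21 and 2.25 ± 0.11 at 4 h of CX-5461. Its changes were -2.00 ± 0.13, adjusted p = 2.8e-30 and -2.04 ± 0.13, adjusted p = 6.1e-31, and at 8 h -1.98 ± 0.13 under BMH-21 and -0.35 ± 0.13 with CX-5461. Tcf7l1, the main TCF repressor in these cells, fell by 2.01 ± 0.11 at 8 h of BMH-21, and Bcl9l, a beta-catenin cofactor, rose by 0.97 ± 0.11 at 4 h of BMH-21.

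The remaining lists held genes downstream. All 5 pluripotency genes that Tcf7l1 is known to repress (Nanog, Esrrb, Tfcp2l1, Klf2 and Nr5a2) fell at 4 and 8 h of BMH-21 and at 4 h of CX-5461, except that quantile normalization called 4 at 4 h of BMH-21. Over all genes 44.9%, 56.9% and 51.2% were lower in those 3 comparisons. On the deposited scale, 4 of the 5 were also lower at 8 h of CX-5461, against 14.3% of all genes. At 2 h, 3 were lower with BMH-21 and 4 with CX-5461, against 11.2% and 20.5% of all genes. Nr5a2 fell most, by 2.80 ± 0.11 at 8 h of BMH-21. This list was chosen with earlier results of these data known, so its counts carry little weight. Nanog and Esrrb are also among the embryonic stem cell markers summed above. The 4 genes related to cyclin D1 (Ccnd2, Ccnd3, Cdk4 and Cdk6) all fell at 8 h of BMH-21 under all 4 scalings, Ccnd2 by 2.46 ± 0.12, the same direction as Ccnd1. Of 11 other WNT targets, 7 were tested and 4 of those were above the filter in every control. These 4 all fell at 8 h of BMH-21 on the deposited scale, Myc most by 1.57 ± 0.11, and Cd44, below the filter in the controls, rose by 3.19 ± 0.17. For these targets and the genes related to cyclin D1, the share of all genes lower at 8 h of BMH-21 was 56.9%.

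**Figure D5:**
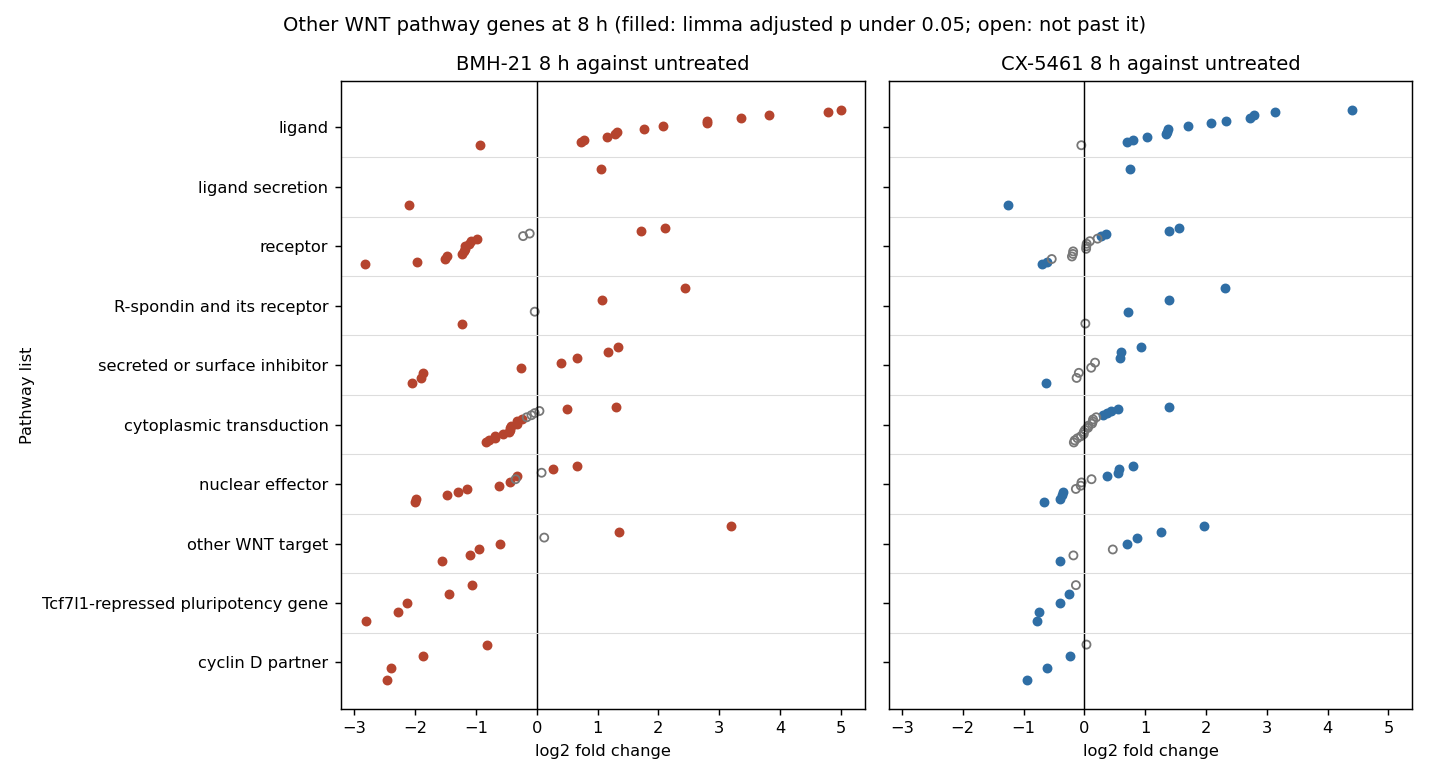
Log2 change from control at 8 h of BMH-21 and of CX-5461 for the tested genes of each pathway list, 1 point per gene, filled where the adjusted p was under 0.05. Ligands lie mostly to the higher side with both inhibitors, while most receptors lie lower with BMH-21. Of the 14 ligands tested, only 6 were above the filter in all controls. The other ligands needed treated libraries to pass it, so the side on which they lie carries little weight.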

How the data were processed

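Poly(A) RNA libraries of 21 samples were grouped by their titles into 7 groups of 3, and all columns of the table were matched by name. The authors deposited 1 table of log2 values. Trim Galore 0.5.0, TopHat2 2.1.1, edgeR 3.32.1, limma 3.46.0, DESeq2 1.30.1, R 4.0.5 and the build mm10 are named per the submitters' processing notes, with no roles. The counting program and its use of strand are not given in the sources used here. Reads of Rnf43 and Lgr5 could include those of overlapping genes in the table (0 to 7 and 0 to 2 reads per library). GENCODE M21 also places genes that were not matched to a row of the table over Axin2, Nkd1, Notum, Rnf43, Tcf7 and Ccnd1, and what their reads add to these was not analysed here. Every deposited log2 value equalled the log2 of a whole number of reads plus 0.5, scaled to 1000000 of an effective library size, to within 1.7e-08 reads.

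The log2 values were fitted with limma 3.58.1 (R 4.3.3), with 1 mean per group over 21 libraries and eBayes with a mean-variance trend. Genes needed a log2 value above 0 in at least 3 libraries, which set aside 6234 of 20900. The fit was tested on simulated reads that carried no library-wide shifts, so that test cannot speak to calls that depend on the scaling. The prior for the variance held 111.5 degrees of freedom and the residuals 14. After each library was centred on its median, the prior held 8.5. Sizes of adjusted p-values depend on this, as for Notum at 8 h of BMH-21, with 2.3e-54 as deposited and 6.9e-21 after centring (limma). The own standard deviation of the 10 genes was 0.80 to 1.24 times the moderated one. All replicate pairs differed beyond sampling noise (chi-square per degree of freedom 2.58 to 26.0). Alternatives were 3 other scalings, a floor at 0, an offset of 5 reads, other filters, variance models, weights, only the groups compared, a replicate block and leaving out each library.

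All 10 genes are named, as are, from each pathway list, the gene with the largest called rise and fall against the control, and Ctnnb1, Axin1, Tcf7l1 and Lef1. For Axin2 the 3 genes of most like pattern are named. The genes and lists were chosen with earlier results of these data known. Coordinates and exonic lengths are from GENCODE M21 (GRCm38). Promoter sequences are from RefSeq (GRCm38.p6). Figures were drawn with matplotlib 3.10.9 in Python 3.11.15.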

Additional observations from a re-analysis of the deposited data

Results flagged for a closer look

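The change from 4 to 8 h differed between the inhibitors in the limma fit for 7 of the 10 genes. As log2 change with BMH-21 minus that with CX-5461, the difference was -2.45 for Notum, -1.57 for Ccnd1, -0.99 for Znrf3, -0.81 for Axin2, -0.78 for Dkk1, 1.07 for Sp5 and 0.45 for Nkd1. On the deposited scale 69.4% of all genes tested passed the same test, so such a difference was common. Notum, Ccnd1 and Znrf3 moved in opposite directions between 4 and 8 h with the 2 inhibitors, although the CX-5461 changes of Notum and Znrf3 were close to 0 under the other scalings. Sp5 rose with both.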

How the results depend on the processing

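Over 2088 single-gene values from the alternatives, 1952 stayed on their side of the threshold with no called value turning sign, 50 lost the call, 73 gained one and 13 were called values that changed sign. The number of the 10 genes called at 2 h of BMH-21 was 4, and 2 without a filter (2891 and 2640 genes called in all). It was 6 after centring, 6 with median-ratio factors and 5 after quantile normalization, where 5285, 5243 and 4634 genes were called. At 2 h of CX-5461 it was 3, but 5 after centring and 6 with median-ratio factors (4096, 4926 and 4637 genes in all). Between the inhibitors at 4 h it was 4, and 7 after quantile normalization (2617 and 6139 genes in all). Leaving out 1 library gave 2 to 4 at 2 h of BMH-21 (2 without control replicate 2) and 3 to 6 between 8 and 4 h of CX-5461 (3 without replicate 1 at 8 h). These 13 were as follows. Under centring, median-ratio factors and quantile normalization in turn, the change from 4 to 8 h of CX-5461 was -0.015, -0.0070 and -0.0090 for Notum, -0.069, -0.060 and -0.047 for Znrf3, and -0.082, -0.073 and -0.0030 for Tcf7. The difference of Tcf7 between the inhibitors at 8 h was 0.00093, 0.046 and 0.014, and Lgr5 at 8 h of CX-5461 was -0.016 after quantile normalization. The cause of the difference between scalings was not tested. Same-numbered replicates did not pair (correlation -0.25 to 0.11, and 4 of 21 libraries were nearest their own number). With a replicate block, 3 of the 10 genes were called at 2 h of BMH-21 (2720 genes in all, against 2891), and Axin2 had an adjusted p of 0.059 by limma. The block changed no other call. Depth limits Rnf43 most, at 17 to 25 reads per control library.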
